A study of Manis javanica with 3 samples.

Results

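The antioxidant enzymes described here are 10 genes of the Malayan pangolin, Manis javanica: the superoxide dismutases SOD1, SOD2 and SOD3, catalase (CAT), the glutathione peroxidases GPX1, GPX2, GPX3 and GPX4, and the peroxiredoxins PRDX1 and PRDX6. They were found by gene symbol, taken from the Swiss-Prot entry of the deposited annotation or, failing that, from its KEGG entry, and paralogs were told apart by the product name of the best protein match. Each symbol led to 1 locus, so 10 of the 24220 genes were members, and a search by product name gave the same 10 genes. All 10 symbols are also in the RefSeq gene table of the species (assembly MJ_LKY), and for all 10 at least 1 adjoining gene was shared between that table and the deposited annotation, for example SCAF4 beside SOD1, RHOA beside GPX1 and CCDC149 beside SOD3.

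The study measured messenger RNA in liver, salivary glands and small intestine of a wild adult female that died during rescue and was dissected straight after death. The animal carried no experimental treatment, and its genotype was not described. That animal gave 1 library for each tissue (here the intestinal, salivary and liver libraries), so no value below has a replicate, no test between tissues was made, and every interval covers counting error only. The study sampled organs of digestion to look for genes tied to the pangolin's diet of ants and termites.

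Superoxide dismutases turn superoxide into hydrogen peroxide and oxygen: SOD1 in the cytosol with copper and zinc, SOD2 in mitochondria with manganese, and SOD3 outside the cell. Hydrogen peroxide is then removed by catalase in peroxisomes, by glutathione peroxidases, most of which carry selenocysteine and use glutathione, and by peroxiredoxins, which use a reactive cysteine that is mostly restored by thioredoxin. The liver is known for a high content of catalase and other peroxide-removing enzymes, and GPX2 is known as the glutathione peroxidase of the gut lining.

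The deposited counts summed to 10158924 fragments in the intestinal library, 8318686 in the salivary library and 14568778 in the liver library, and the 10 most abundant genes took 43.3%, 23.1% and 16.1% of them. Marker genes were read to check the labels. Hepatocyte markers had a median FPKM (fragments scaled for transcript length and mapped fragments) of 444 in the liver library, 1.74 in the intestinal library and 0.185 in the salivary library. In the library labelled small intestine the enterocyte markers (21 loci of 11 symbols) had a median FPKM of 0.0421, against 0.0135 in the salivary and 0.115 in the liver library, and summed to 50.3, 51.8 and 172 in the intestinal, salivary and liver libraries. Of these loci 4 were above an FPKM of 1 in the intestinal library, the highest being VIL1 (gene24763), at 24.0 against 25.7 and 21.2. FABP1, FABP2 and LCT were listed at 0 in all 3 libraries and so do not tell the tissues apart. A further locus with the symbol VIL1 was also listed at 0 in each library. Gastric gland markers (15 loci of 10 symbols) had a median FPKM of 262 in the intestinal library, 0.608 in the salivary library and 0 in the liver library. Enterocyte markers were thus no higher there than in the other libraries by their sum and gastric gland markers were abundant, so every value given for the small intestine below is that of the library with this label. Salivary gland markers (21 loci, with 5 of 12 symbols found) had a median FPKM of 0.789 in the intestinal library, 0.175 in the salivary library and 0.292 in the liver library. Much of the list is paralogs, and it summed to 412 in the intestinal library and 329 in the salivary library. Among them AQP5 had an FPKM of 94.3 in the salivary library, 24.7 in the liver library and 2.29 in the intestinal library. By its median and sum, the list did not set the salivary library apart. In bulk tissue, fewer cells of a type and less RNA per cell cannot be told apart.

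All 10 enzymes had fragments in all 3 libraries, and their levels spanned more than 3 orders of magnitude. In the liver library SOD2, GPX3, GPX4, GPX1 and PRDX1 had the highest FPKM of the 10, at ranks 36, 54, 106, 253 and 278 of 24220 genes. In the salivary library GPX3 led at rank 80, before GPX1 at rank 145 and GPX4 at rank 238. In the intestinal library GPX1 stood at rank 165, GPX4 at rank 176 and SOD2 at rank 289. SOD2 and GPX3 in the liver library, and GPX1 and GPX4 in the intestinal library, traded places by fragments per kilobase of the deposited length. SOD3 and GPX2 had the lowest FPKM of the 10 in every library. The 10 genes together summed to an FPKM of 990.5 in the intestinal library, 1593 in the salivary library and 3883 in the liver library, which is 0.138%, 0.267% and 0.623% of all FPKM there. SOD2 and GPX3 made up much of the gap, and without them the other 8 summed to 781, 721 and 1287.

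**Figure D1:**
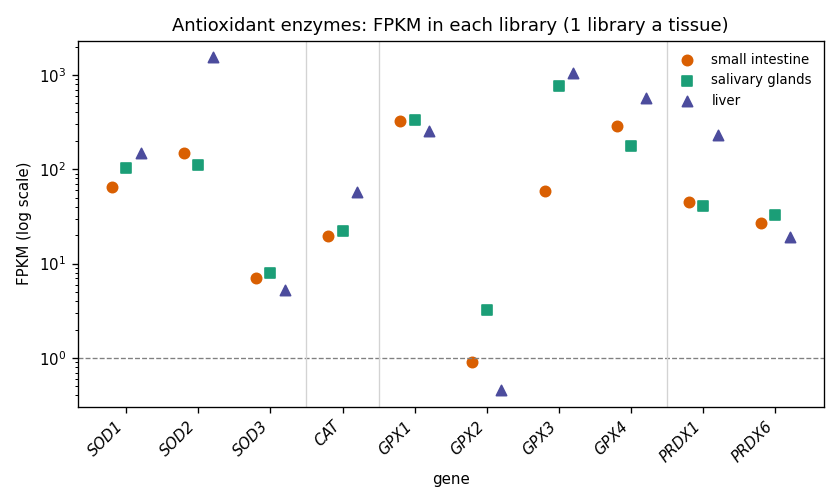
FPKM of the 10 antioxidant enzymes (log scale) in the intestinal, salivary and liver libraries, 1 point for each library and no error bar because each tissue has 1 library. The dashed line marks an FPKM of 1. The liver points of SOD2 (1539.7) and GPX3 (1056) are the highest, and the points of SOD3 and GPX2 are the lowest in every library.

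Ratios between libraries were taken from counts scaled with TMM factors, which set the libraries to a common scale, and a gene was counted as different past 2-fold (a log2 ratio of at least 1 in size) if it had at least 10 fragments in at least 1 of the 2 libraries. Between the intestinal and liver libraries, 6 of the 9 members with enough fragments were past 2-fold, all of them lower in the small intestine (SOD1, SOD2, CAT, GPX3, GPX4 and PRDX1), against 48.3% of all 17399 genes past 2-fold in either direction and 24.0% lower in the small intestine. The median log2 ratio was -1.27 over these members and -0.08 over all genes. Between the salivary and liver libraries, 6 of 10 members were past 2-fold, with SOD2, CAT, GPX4 and PRDX1 lower in the salivary glands and GPX2 and PRDX6 higher. The background there was 47.9% of 17162 genes in either direction, 24.9% lower and 22.9% higher in the salivary glands, and the median log2 ratio was -0.47 for the members and -0.07 for all genes. Between the intestinal and salivary libraries, 2 of 10 members were past 2-fold, GPX2 and GPX3, both lower in the small intestine. The background was 37.6% of 16519 genes in either direction and 16.9% lower in the small intestine, and the median log2 ratios were -0.28 and -0.02. With 9 or 10 members, the shares in either direction lay within 2 genes of the background. For small intestine against liver, that share fell below its background when the 10 most abundant genes were left out of the library sizes. There, 4 of 9 members and 8324 of 17399 genes were past 2-fold. The share lower in the small intestine than in the liver lay further from its background, at 6 of 9 members against 24.0% of genes. Without the 10 most abundant genes it was 4 of 9 members against 3198 of 17399 genes. The members were chosen with earlier results of these data known, so nothing about them as a group is read from these shares. The 3 comparisons share libraries and are not independent of each other.

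Some of these calls lay close to 2-fold and rested on the scaling. With library sizes that leave out the 10 most abundant genes, which moved the median of all genes by 0.32 and 0.33 on the log2 scale, the log2 ratio was -0.95 for SOD1 and -0.81 for GPX4 in small intestine over liver and -0.86 for CAT in salivary glands over liver. The ratio of the deposited FPKM gave -0.98 for GPX4 in small intestine over liver and 0.75 for PRDX6 in salivary glands over liver. With library size only, CAT stood at -0.97 in salivary glands over liver, and SOD1 (-1.22) and PRDX6 (-1.06) passed 2-fold in small intestine over salivary glands. SOD2, CAT, GPX3 and PRDX1 stayed past 2-fold lower in small intestine than in liver under the 6 scalings tried. SOD2, GPX4 and PRDX1 stayed past 2-fold lower and GPX2 past 2-fold higher in salivary glands than in liver, and GPX2 and GPX3 past 2-fold lower in small intestine than in salivary glands, although GPX2 rests on at most 29 fragments.

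**Figure D2:**
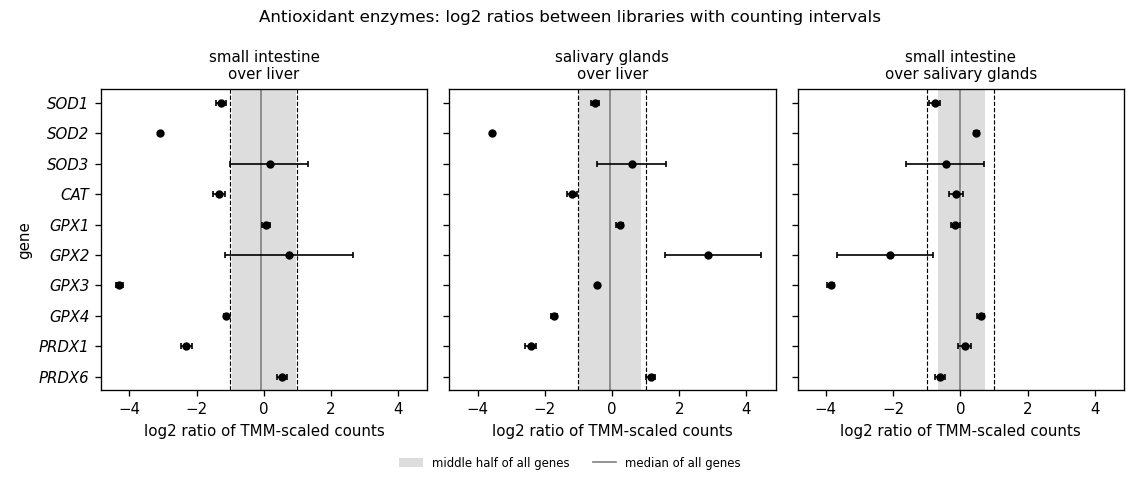
Log2 ratio of TMM-scaled counts of each enzyme between each pair of libraries, with bars for the exact 95% counting interval, dashed lines at 2-fold, and a grey band and line for the quartiles and median of all genes tested. GPX2 in small intestine over liver had too few fragments to be counted. SOD2 lies at -3.08 and -3.56 against the liver, and GPX3 at -4.30 against the liver and -3.86 against the salivary glands in the intestinal library.

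By TMM-scaled count, 6 members were highest in the liver library, 4 in the salivary library (SOD3, GPX1, GPX2 and PRDX6) and none in the intestinal library. Over 18037 genes, 39.4% were highest in the liver library, 30.5% in the salivary library and 30.1% in the intestinal library.

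**Figure D3:**
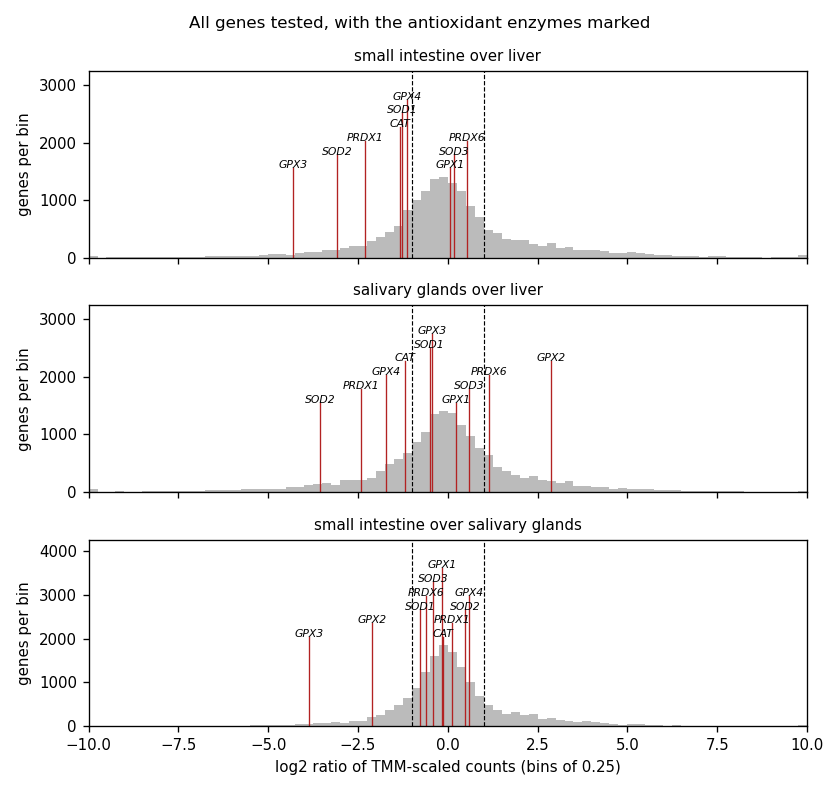
Number of genes in each bin of the log2 ratio of TMM-scaled counts for the 3 pairs of libraries, with red lines at the antioxidant enzymes, dashed lines at 2-fold and values past the ends placed in the end bins. Of all genes tested, 6.08% had a lower ratio than SOD2 in the small intestine over liver panel and 1.65% a lower ratio than GPX3 in the small intestine over salivary glands panel.

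Of the superoxide dismutases, SOD2 differed most between libraries. SOD2 (gene12102; scaffold NW_016535632.1, bases 189391 to 199783, minus strand) had an FPKM of 150.3 in the intestinal library, 111 in the salivary library and 1539.7 in the liver library, from 3861, 3114 and 55306 fragments. By TMM-scaled counts its level in the liver library was 8.46-fold that in the intestinal library (8.19 to 8.74) and 11.8-fold that in the salivary library (11.4 to 12.2). The intestinal and salivary libraries differed far less, with a log2 ratio of 0.48 (0.41 to 0.55) toward the small intestine.

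SOD1 (gene10299; NW_016534215.1, 291336 to 298927, minus strand) had an FPKM of 64.2 in the intestinal library, 102 in the salivary library and 149 in the liver library, from 406, 777 and 1658 fragments. The messenger RNA of this cytosolic enzyme was also highest in the liver library, but its range across libraries was 2.32-fold by FPKM against 13.9-fold for SOD2. The log2 ratio of TMM-scaled counts was -1.27 (-1.43 to -1.11) for small intestine over liver, -0.50 (-0.63 to -0.38) for salivary glands over liver and -0.77 (-0.94 to -0.59) for small intestine over salivary glands. SOD3, the secreted enzyme, was found as a new gene that the authors joined from aligned reads (Manis_javanica_newGene_1862; NW_016530182.1, 1026839 to 1030613, plus strand), with a modelled transcript of only 365 bases. It had an FPKM of 6.98, 7.94 and 5.31 in the intestinal, salivary and liver libraries, from 12, 18 and 18 fragments. Its log2 ratios ran from -0.42 to 0.59, and the counting interval of each included 0, so no difference of SOD3 between tissues was detectable at this depth.

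The make-up of the family differed with these levels. SOD2 took 67.9% of the summed FPKM of the 3 dismutases in the intestinal library, 50.2% in the salivary library and 90.9% in the liver library. SOD1 took 29.0%, 46.2% and 8.80%. The messenger RNAs of the mitochondrial and the cytosolic enzyme were thus at nearly the same FPKM in the salivary library, where the ratio of SOD2 to SOD1 was 1.08. They were far apart in the liver library, where that ratio was 10.3. Enzyme levels were not measured.

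Catalase (CAT, gene22531; NW_016553564.1, 69054 to 90909, minus strand), the peroxisomal enzyme that splits hydrogen peroxide, had an FPKM of 19.8 in the intestinal library, 22.2 in the salivary library and 57.4 in the liver library, from 352, 436 and 1498 fragments. The liver library stood above both others, by 2.51-fold over the small intestine (2.24 to 2.83) and 2.28-fold over the salivary glands (2.05 to 2.54) in TMM-scaled counts, while the interval between the other two included 0 on the log2 scale (-0.35 to 0.07). Catalase was below SOD1 and SOD2 in every library: the FPKM of SOD2 was 7.59 times that of CAT in the intestinal library, 5.00 times in the salivary library and 26.8 times in the liver library. The CAT locus overlaps ELF5, an epithelial transcription factor gene on the other strand, over 2524 bases. The libraries were not stranded, so fragments from the overlap cannot be told apart, and ELF5 itself had 42, 452 and 0 fragments in the intestinal, salivary and liver libraries.

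The glutathione peroxidases were the most abundant of the 3 enzyme families by summed FPKM in each library, with sums of 677, 1277 and 1884 in the intestinal, salivary and liver libraries. GPX3 was the member of the family with the widest range. GPX3, the secreted plasma form (gene404; NW_016527482.1, 245320 to 253417, minus strand), had an FPKM of 59.0 in the intestinal library, 761 in the salivary library and 1056 in the liver library, from 829, 13553 and 27663 fragments. The salivary and liver libraries were both high and the intestinal library low: in TMM-scaled counts GPX3 was 19.7-fold lower in the small intestine than in the liver (18.4 to 21.1) and 14.5-fold lower than in the salivary glands (13.6 to 15.6). The salivary and liver libraries differed by a log2 ratio of -0.44 (-0.47 to -0.41).

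GPX1, the cytosolic form (gene21031; NW_016548816.1, 158539 to 159004, minus strand), had an FPKM of 327 in the intestinal library, 334 in the salivary library and 256 in the liver library, from 863, 1078 and 1390 fragments. It differed least of the 10 enzymes by FPKM, 1.31-fold between its highest and lowest library, and the sign of its small ratio between intestine and liver turned with library size only (-0.17). Its log2 ratios of TMM-scaled counts were 0.07 (-0.05 to 0.20) for small intestine over liver, 0.22 (0.11 to 0.34) for salivary glands over liver and -0.15 (-0.28 to -0.02) for small intestine over salivary glands. Its gene model is 466 bases long and spans as many bases of the scaffold, so the model holds no intron. GPX4, which reduces peroxidised lipids within membranes (gene26083; NW_016588280.1, 54826 to 56944, plus strand), had an FPKM of 289.5 in the intestinal library, 178 in the salivary library and 571 in the liver library, from 2246, 1666 and 8293 fragments. GPX4 was higher in the liver library by 2.18-fold over the small intestine (2.08 to 2.29) and 3.31-fold over the salivary glands (3.14 to 3.49) in TMM-scaled counts, and the intestinal library stood 1.52-fold above the salivary library (1.42 to 1.62).

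GPX2 (gene8984; NW_016533209.1, 70343 to 73737, plus strand) had an FPKM of 0.896 in the intestinal library, 3.22 in the salivary library and 0.454 in the liver library, from 6, 29 and 6 fragments. This gut form was thus near the detection limit in the library labelled small intestine (95% Poisson interval of the count 2.20 to 13.1). In TMM-scaled counts the salivary library was 7.28-fold above the liver (2.97 to 21.4) and 4.30-fold above the small intestine (1.75 to 12.7), with wide intervals. Small intestine and liver both had too few fragments to be compared.

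Within the family, the leading gene differed between libraries. In the intestinal library GPX1 took 48.4% and GPX4 42.8% of the summed FPKM of the 4 genes, with GPX3 at 8.72%. In the salivary library GPX3 took 59.6%, and in the liver library 56.1%. The second place went to GPX1 in the salivary library, with 26.2%, and to GPX4 in the liver library, with 30.3%. The ratio of GPX4 to GPX1 was 0.885 in the intestinal library, 0.532 in the salivary library and 2.23 in the liver library by FPKM, and 1.39, 0.827 and 3.19 by fragments per kilobase of the deposited length. The order of these genes in the intestinal library thus depended on how length was counted, and they cannot be ranked there. The same holds for SOD2 and GPX3 in the liver library and for SOD1 and GPX3 in the intestinal library, which also traded places.

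**Figure D4:**
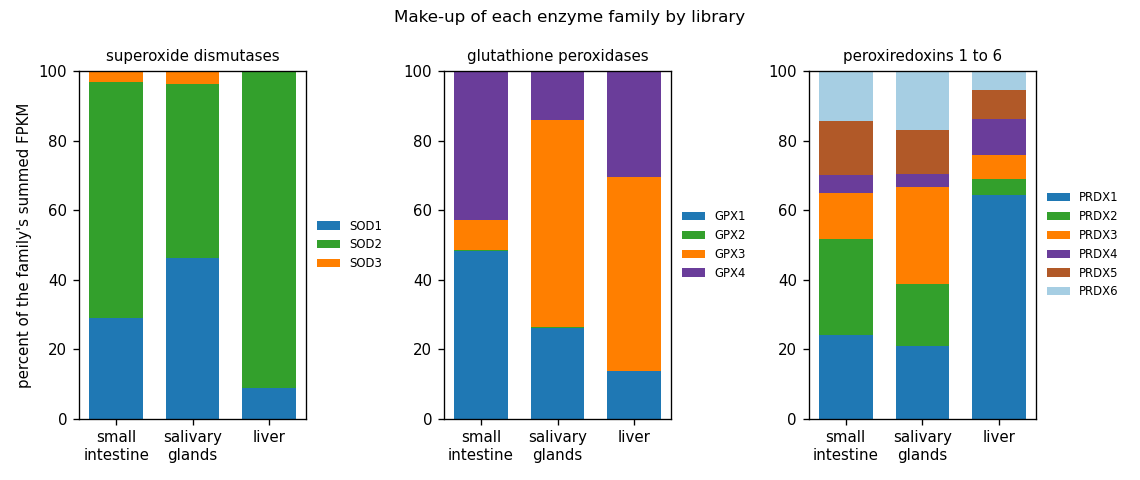
Percent of the summed FPKM of each enzyme family taken by each gene in the intestinal, salivary and liver libraries, for superoxide dismutases, glutathione peroxidases and peroxiredoxins. SOD2 fills 90.9% of the dismutase bar, GPX3 56.1% of the glutathione peroxidase bar and PRDX1 64.4% of the peroxiredoxin bar in the liver library.

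PRDX1, a cytosolic peroxiredoxin restored by thioredoxin (gene23287; NW_016556763.1, 35976 to 44364, minus strand), had an FPKM of 45.4 in the intestinal library, 40.4 in the salivary library and 228 in the liver library, from 380, 392 and 3167 fragments. The liver library was high and the other libraries alike within counting error: the liver stood 4.92-fold above the small intestine (4.43 to 5.49) and 5.37-fold above the salivary glands (4.83 to 5.97) in TMM-scaled counts, and the log2 ratio between the latter pair was 0.12 (-0.08 to 0.33) and turned to -0.33 with library size only. PRDX6, a peroxiredoxin that uses glutathione and also has phospholipase activity (gene25702; NW_016578886.1, 40382 to 49727, minus strand), had an FPKM of 27.1, 32.6 and 19.4 in the intestinal, salivary and liver libraries, from 698, 1194 and 808 fragments. PRDX6 ran the other way from PRDX1, with the liver library lowest and a log2 ratio of TMM-scaled counts of 0.55 (0.40 to 0.70) for small intestine over liver and 1.15 (1.02 to 1.28) for salivary glands over liver. Its locus overlaps SLC9C2 on the other strand over 2092 bases, and SLC9C2 had 42, 20 and 26 fragments in the same order of libraries, far fewer than PRDX6. The FPKM ratio of PRDX1 to PRDX6 was 1.67 in the intestinal library, 1.24 in the salivary library and 11.8 in the liver library.

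The other peroxiredoxins and glutathione peroxidases give the rest of both families. PRDX2, a cytosolic form, had an FPKM of 51.6 in the intestinal library, 34.8 in the salivary library and 16.1 in the liver library, so that it was lowest where PRDX1 was highest. PRDX4, the form of the endoplasmic reticulum, had 9.53, 6.80 and 36.3, with the liver highest as for PRDX1. PRDX3, the mitochondrial form, had 25.0, 54.3 and 25.0 and was highest in the salivary library. PRDX1 took 64.4% of the summed FPKM of the 6 peroxiredoxins in the liver library, but 24.2% in the intestinal library, where PRDX2 took 27.5%, and 20.8% in the salivary library, where PRDX3 took 28.0%. GPX7 had an FPKM of 1.89, 4.24 and 0.978 in the intestinal, salivary and liver libraries. GPX8, like GPX7 a form of the endoplasmic reticulum, had 39, 2 and 3 fragments, which gives a log2 ratio of TMM-scaled counts of 4.46 (2.81 to 6.80) for small intestine over liver and 4.45 (2.50 to 7.55) for small intestine over salivary glands. GPX8 was thus higher in the intestinal library, the one in which GPX3 was low.

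These enzymes depend on thioredoxin, glutathione, metals and selenium, and 8 lists of such genes (105 symbols, 113 loci) were read with the same rule. Between the intestinal and liver libraries 21 of 102 tested genes were past 2-fold higher in the small intestine and 30 lower, with a median log2 ratio of -0.29. Between the salivary and liver libraries 19 of 101 were higher in the salivary glands and 36 lower, with a median of -0.37. Between the intestinal and salivary libraries 21 of 98 were higher in the small intestine and 13 lower, with a median of -0.01. Of all genes, 24.2% were past 2-fold higher and 24.0% lower in the small intestine than in the liver. For salivary glands over liver these shares were 22.9% and 24.9%, and for small intestine over salivary glands 20.6% and 16.9%. They are the background for the counts of each list below. In both comparisons with the liver, the share of listed genes higher in the liver was above this background. The share lower in the liver was below it. The lists were chosen with earlier results of these data known and read under TMM scaling only, so nothing is drawn from these shares.

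**Figure D5:**
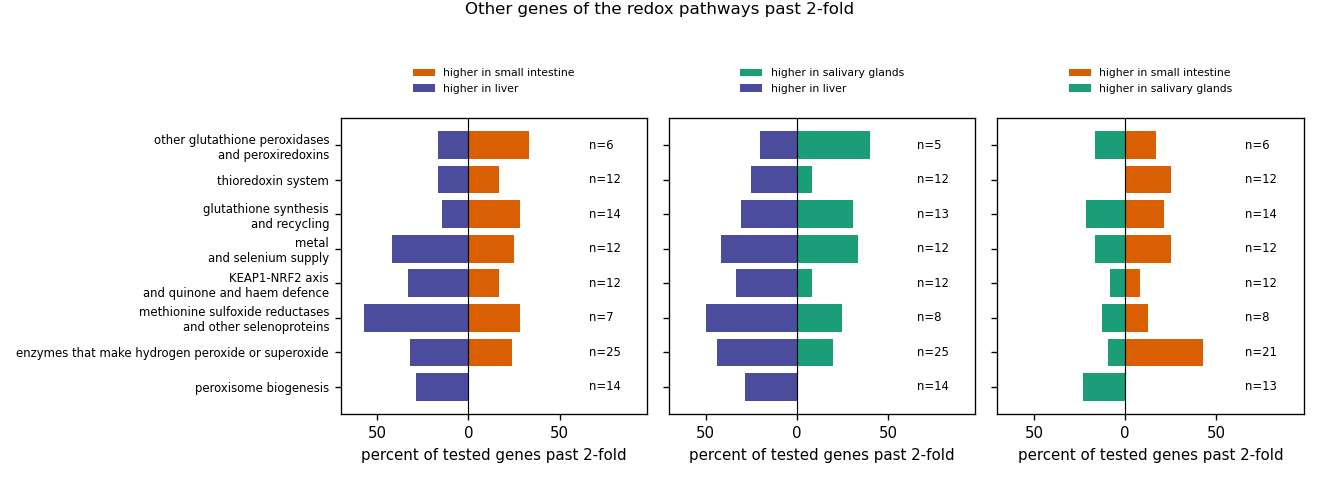
Percent of the tested genes of each of the 8 lists that were past 2-fold in each direction, for the 3 pairs of libraries, with n the number of genes tested. Bars to the right are genes higher in the first-named library and bars to the left genes higher in the other; the peroxisome list has no bar to the right in any panel.

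In the thioredoxin system, 2 of 12 tested genes were past 2-fold higher and 2 lower in the small intestine than in the liver, and 1 of 12 higher and 3 lower in the salivary glands than in the liver. Sulfiredoxin (SRXN1), which repairs over-oxidised peroxiredoxins, had an FPKM of 5.39 in the intestinal library, 6.27 in the salivary library and 30.4 in the liver library, highest in the liver library as was PRDX1. Thioredoxin (TXN, gene4041) had 197, 101 and 121, and its inhibitor TXNIP had 188, 284 and 86.0. Glutaredoxin (GLRX) was highest in the intestinal library, with an FPKM of 19.7 against 4.36 in the salivary and 7.83 in the liver library.

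In glutathione synthesis and recycling, 4 of 14 tested genes were higher and 2 lower in the small intestine than in the liver, and 4 of 13 were higher and 4 lower in the salivary glands than in the liver. GCLM, the modifier subunit of the first enzyme of glutathione synthesis, had an FPKM of 3.05, 4.43 and 38.8 in the intestinal, salivary and liver libraries, a log2 ratio of -2.98 (-3.33 to -2.65) for small intestine over liver. The catalytic subunit of the same enzyme, GCLC, named after its values were seen, had 4.08, 1.96 and 5.13. The log2 ratio of GCLC was -0.25 (-0.53 to 0.04) for small intestine over liver and -1.44 (-1.83 to -1.07) for salivary glands over liver. Glutathione synthetase (GSS), the next enzyme, was instead highest in the salivary library, with 6.74, 16.6 and 5.30. GGT1 (gene21896), which breaks glutathione down outside the cell, had an FPKM of 1.99, 0.118 and 1.14. A gene with the symbol ME1 (gene2699, by product name a mitochondrial malic enzyme), of a group that supplies NADPH, had 4.18, 6.91 and 0.0361.

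Among genes of metal and selenium supply, 3 of 12 tested genes were higher and 5 lower in the small intestine than in the liver, and 4 higher and 5 lower in the salivary glands than in the liver. SLC39A14 (gene5371), a transporter of manganese, zinc and iron, had an FPKM of 37.0 in the intestinal library, 6.80 in the salivary library and 483 in the liver library. Like SOD2, a manganese enzyme, it was highest in the liver library and lowest in the salivary library, with a log2 ratio of -6.06 (-6.23 to -5.90) for salivary glands over liver. A further locus with the same symbol (gene4035) is ZIP8, a related transporter, by product name, and had 28.2, 324 and 20.9. The copper chaperone of SOD1, CCS, named here after its values were seen, had an FPKM of 22.0, 42.1 and 6.52, so that it was lowest in the liver library, where SOD1 was highest. Selenoprotein P (SEPP1), the liver-made carrier of selenium, was also named after its values were seen and had 39.8, 11.6 and 114.

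In the KEAP1-NRF2 axis with quinone and haem defence, 2 of 12 tested genes were higher and 4 lower in the small intestine than in the liver, and 1 higher and 4 lower in the salivary glands than in the liver. SQSTM1, an adaptor protein that binds KEAP1, had an FPKM of 83.8, 84.3 and 199 in the intestinal, salivary and liver libraries, and PARK7 had 68.4, 109 and 108. A locus with the symbol KEAP1 (gene22232), by product name kelch-like protein 40, had the largest ratio of the list in both comparisons with the liver, with log2 ratios of 3.53 (2.69 to 4.50) and 3.60 (2.77 to 4.56), and is not KEAP1. It is 1 of the 2 genes counted above as higher in the small intestine and the only 1 counted as higher in the salivary glands. Biliverdin reductase B (BLVRB), of haem breakdown, had an FPKM of 19.7, 39.2 and 27.5. The transcription factor NRF2 (NFE2L2), named after its values were seen, had 38.7, 31.2 and 38.1. Its FPKM thus varied less than that of SOD2, GPX3 or PRDX1, and whether it bears on the levels of the members was not tested.

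Of the methionine sulfoxide reductases and other selenoproteins, 2 of 7 tested genes were higher and 4 lower in the small intestine than in the liver, and 2 of 8 higher and 4 lower in the salivary glands than in the liver. SELK and VIMP (selenoprotein S), both of the endoplasmic reticulum, were higher in the liver library: SELK had an FPKM of 90.2, 90.2 and 281, and VIMP 94.1, 80.9 and 235. MSRB3 (gene9761) ran the other way, with 41.9 in the intestinal library against 2.94 in the salivary and 6.91 in the liver library. MSRB1, a new gene, had 1, 27 and 1 fragments, a log2 ratio of 5.35 (2.74 to 10.70) for salivary glands over liver.

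Among enzymes that make hydrogen peroxide or superoxide, 6 of 25 tested genes were higher and 8 lower in the small intestine than in the liver. In the salivary glands, 5 were higher and 11 lower than in the liver. Of 21 tested genes, 9 were higher and 2 lower in the small intestine than in the salivary glands, against 20.6% and 16.9% of all genes. For the same pair, 3 and 0 of 12 were higher and lower in the thioredoxin list and 3 and 3 of 14 in the glutathione list. The metal and selenium list had 3 and 2 of 12, the KEAP1-NRF2 list 1 and 1 of 12, and the selenoprotein list 1 and 1 of 8. The peroxisome list had 0 and 3 of 13, and the other glutathione peroxidases and peroxiredoxins 1 and 1 of 6. Urate oxidase (UOX), a peroxisomal enzyme, had 1122 fragments in the liver library and 0 in both others, so that it was at least 221-fold higher than in the small intestine and at least 248-fold higher than in the salivary glands, taking the floor of 3 counts in each library. D-amino acid oxidase (DAO), also peroxisomal, had 1, 5 and 586 fragments. Xanthine dehydrogenase (XDH), in contrast, had an FPKM of 104, 126 and 96.1, and the sulfhydryl oxidase QSOX1 (gene22914) had 41.5, 86.4 and 97.9. DUOX1, an oxidase of epithelia that releases hydrogen peroxide, was higher in the intestinal library, with an FPKM of 2.41, than in the salivary library, with 0.255, or the liver library, with 0.0710.

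Of the genes of peroxisome biogenesis, the compartment of catalase, none was past 2-fold higher in the small intestine or the salivary glands than in the liver, and 4 of 14 tested genes were lower in each. Of all genes, 24.0% were lower in the small intestine and 24.9% lower in the salivary glands than in the liver, close to the share of the list, and 24.2% and 22.9% were higher. PEX3 (gene27051), a membrane protein needed to form peroxisomes, had an FPKM of 1.82, 6.15 and 18.8 in the intestinal, salivary and liver libraries, and PEX16, its docking partner, had 11.7, 25.6 and 34.3. PEX10 ran the other way, with 25.6, 14.8 and 12.8, a log2 ratio of 0.83 (0.70 to 0.96) for small intestine over liver. A locus with the symbol PEX5 (gene12275), a PEX5-related protein by product name, had 8, 2 and 18 fragments, a log2 ratio of -2.58 (-5.73 to -0.52) for salivary glands over liver.

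Markers of other cells moved with some of these ratios. The hepatocyte list summed to an FPKM of 161 in the intestinal library, 176 in the salivary library and 20329 in the liver library. The macrophage list summed to 132, 83.1 and 875. Both lists were thus highest in the liver library, as were 6 members (SOD1, SOD2, CAT, GPX3, GPX4 and PRDX1). The smooth muscle and vascular wall list summed to 3784, 475 and 152 and was highest in the intestinal library. The plasma cell and B cell list summed to 218, 1704 and 1327, of which the highest locus of each library gave 159, 1640 and 1258. Its median FPKM was 0.518, 1.40 and 4.70, so by median the liver library was highest. Genes of red cells, which hold much catalase and PRDX2, were near 0 and summed to 5.80, 2.92 and 2.90. The part of these cells in the ratios was not tested.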

How the data were processed

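The members and gene lists were chosen with earlier results of these data known. The libraries were poly(A)-selected, not stranded and were sequenced on an Illumina HiSeq instrument. The authors aligned them with TopHat2, and Cufflinks gave 3373 genes that the annotation lacked. The genome build is not given in the sources used here, and coordinates on the NW scaffolds are as deposited, with no exons. The deposited count is a whole number of fragments per gene, and the tool that counted is not stated. The deposited FPKM was made by the authors, who name RSEM for it. The deposited score, the count times 1 factor per library, was read only as a check. The deposited length in bases was used for fragments per kilobase.

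TMM factors (edgeR 4.0.16, R 4.3.3) were 0.851, 1.17 and 1.00 for small intestine, salivary glands and liver. Ratios were computed with Python 3.11.15, scipy 1.17.1 and pandas 2.3.3. A count of 0 was set to a floor of 3 counts, which is 0.295, 0.361 and 0.206 CPM. Intervals are 95% exact conditional binomial intervals of the scaled counts. The study called a q-value with the fold; with 1 library per tissue only the fold was kept. Besides members, the text names, from each of the 8 lists, the 2 genes with the highest FPKM in any library and the largest ratio in each comparison. PRDX4, CCS, SEPP1, NFE2L2 and GCLC are also named, chosen after their values were seen. The procedure was tested on simulated data. Alternatives were DESeq2 1.42.0 size factors, library size, upper quartile, FPKM ratios, library size without the 10 most abundant genes, other count minimums, 4-fold, no new genes, 1 locus a symbol, product names, and, chosen after seeing the data, TMM from the 2 libraries compared and fragments per kilobase. No sequence is printed, and a further liver library of the study was not used here.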

Additional observations from a re-analysis of the deposited data

How the results depend on the processing

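No paired analysis was possible because each tissue has 1 library. With 1 library per tissue, leaving out a replicate was not possible either. At 4-fold, 3 members were called between small intestine and liver (all genes 4655), 3 between salivary glands and liver (all genes 4365), and 2983 genes between small intestine and salivary glands. In that last comparison library size only called 4 members, adding SOD1 (-1.22) and PRDX6 (-1.06), and a minimum of 50 fragments called 1 member, without GPX2, and 3889 genes. The members' share was 0.0950% in the small intestine and 0.685% in the liver as a share of counts, and 0.353% in the salivary glands and 0.725% in the liver by fragments per kilobase. Without the 10 genes of highest FPKM it was 0.264%, 0.454% and 0.891% in small intestine, salivary glands and liver, and without new genes 0.144%, 0.339% and 0.653%. Leaving out the top 10 genes ended the calls of SOD1 (-0.95) and GPX4 (-0.81) between small intestine and liver and of CAT (-0.86) between salivary glands and liver. Library size only ended the CAT call (-0.97) too, and the FPKM ratio ended those of GPX4 (-0.98) and PRDX6 (0.75). Uncalled ratios of SOD3 (-0.06) and GPX1 (-0.17) against the liver and of PRDX1 (-0.33) between small intestine and salivary glands took the other sign with library size only. The cause was not tested.

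Library size only moved the median of all genes by -0.24, 0.22 and -0.46 for small intestine over liver, salivary glands over liver and small intestine over salivary glands, and leaving out the top 10 genes moved the first pair by 0.32 and 0.33. Genes higher and lower in the small intestine than in the liver were 4218 and 4184, but 3769 and 5126 with library size only and 5126 and 3198 without the top 10. For salivary glands over liver they were 3936 and 4277, but 4582 and 3658, and 5006 and 3391. For small intestine over salivary glands they were 3406 and 2797, but 2605 and 4700 with library size only. Depth limits SOD3 and GPX2, with at most 29 fragments in any library.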
